A study of Mus musculus with 6 samples.

Results

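The Hox genes of the mouse lie in 4 clusters, Hoxa on chromosome 6, Hoxb on chromosome 11, Hoxc on chromosome 15 and Hoxd on chromosome 2, and the data described here are the open chromatin regions around 38 of these genes. A region belonged to the Hox set where its nearest protein-coding gene, within 100 kb, was one of the 38. This rule gave 217 of the 239675 regions of the genome, of which 41 belonged to Hoxa, 74 to Hoxb, 67 to Hoxc and 35 to Hoxd. The rule used position alone and no measured value, and 1 further gene of the annotation that matches the naming pattern is not in the member list and is not reported here. All 38 members had at least 1 region.

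Hox genes encode homeodomain transcription factors that give cells along the head-to-tail axis their regional identity. Genes at one end of a cluster, with the lowest paralog numbers, act in the anterior body and are switched on first, and those at the other end act in the posterior body and are switched on last. In pluripotent cells the clusters are known for Polycomb repression, with many starts that carry both active and repressive histone marks. In the text below, paralogs 1 to 3 are called anterior, 4 to 8 central and 9 to 13 posterior.

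ATAC-seq, an assay where the transposase Tn5 cuts and tags accessible DNA, was run on mouse epiblast stem cells, a pluripotent cell type of the post-implantation epiblast, kept as embryoid bodies in serum for 2 days. The induced group comprised 3 libraries of a Mixl1-inducible line exposed to 1 µg/mL doxycycline over the final 24 h. The Mixl1 knockout (KO) group comprised 3 libraries, and the protocol ties doxycycline to the inducible lines. Mixl1 is a homeobox factor of the primitive streak. The libraries came from 50000 cells each, and neither separate cultures nor the lines' genetic background are recorded in the labels.

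Each group was deposited as 1 peak list. One list is named KO, and the other is named FM, which no label explains, and it was taken as the list of the induced group because no other list remained. Mixl1 induction, doxycycline and the cell lines cannot be told apart. With 1 list per group there was no replicate error and no test between groups. Exact binomial (Clopper-Pearson) intervals at 95% confidence are given, and they cover the counting of regions only, because regions of a list share the same libraries. The FM list held 205844 peaks and the KO list 139164 peaks on the main chromosomes, and FM-specific regions outnumbered KO-specific ones over the genome. The Mixl1 gene itself carried 1 FM peak with a fold of 4.258 and 2 KO peaks, the stronger with a fold of 2.968, values that do not check the knockout because an open region does not show that the gene is intact. All 8 epiblast marker genes and all 4 primitive streak genes examined had a peak on them in both lists. Over all protein-coding genes 79.3% had an FM peak and 77.7% a KO peak, so counts of marker genes with a peak do not check cell identity. Of 4 naive pluripotency genes, 3 had an FM peak and 4 a KO peak. Of 6 fibroblast marker genes, which stand for the feeder cells of the routine culture, 4 had an FM peak and 5 a KO peak, with strongest folds of 2.304 to 5.076 (FM) and 2.147 to 4.02 (KO), and Postn had neither. Their part in the Hox values was not tested.

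The upstream sequences of 5 members are shown because the regions over them are among the strongest, the widest or the most different between the lists. Hoxd1 had the highest FM fold of all Hox regions, Hoxa2 had a wide KO peak over its upstream sequence and a narrow FM peak beside it, Hoxa13 carried neighbouring regions that leaned to opposite lists, Hoxb1 had a strong peak in both lists, and the widest Hoxc region covered Hoxc4. Each sequence is the 250 bases before the annotated start, 5′ to 3′ on the strand of the gene, from RefSeq on GRCm38.p6. Capitals mark matches, on either strand, to CCAAT, the CCAAT box, and to TGATNNAT, the shared site of HOX and PBX proteins.
Hoxa2 (chr6:52164832-52165081, minus strand): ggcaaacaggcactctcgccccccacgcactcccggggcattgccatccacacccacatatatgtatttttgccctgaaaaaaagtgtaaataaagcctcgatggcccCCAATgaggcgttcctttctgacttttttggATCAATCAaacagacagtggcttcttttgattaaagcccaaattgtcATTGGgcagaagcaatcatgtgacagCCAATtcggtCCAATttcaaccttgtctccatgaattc
Hoxa13 (chr6:52260881-52261130, minus strand): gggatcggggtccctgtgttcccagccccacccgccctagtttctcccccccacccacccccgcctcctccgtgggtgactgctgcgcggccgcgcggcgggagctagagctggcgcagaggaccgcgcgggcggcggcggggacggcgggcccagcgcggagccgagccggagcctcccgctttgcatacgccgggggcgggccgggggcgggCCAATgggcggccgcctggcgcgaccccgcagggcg
Hoxb1 (chr11:96365508-96365757, plus strand): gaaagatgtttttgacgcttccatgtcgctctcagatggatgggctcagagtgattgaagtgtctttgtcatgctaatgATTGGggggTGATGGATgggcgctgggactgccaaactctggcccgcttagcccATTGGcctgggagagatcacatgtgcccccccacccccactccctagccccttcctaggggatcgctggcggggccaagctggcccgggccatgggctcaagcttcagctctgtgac
Hoxc4 (chr15:103034145-103034394, plus strand): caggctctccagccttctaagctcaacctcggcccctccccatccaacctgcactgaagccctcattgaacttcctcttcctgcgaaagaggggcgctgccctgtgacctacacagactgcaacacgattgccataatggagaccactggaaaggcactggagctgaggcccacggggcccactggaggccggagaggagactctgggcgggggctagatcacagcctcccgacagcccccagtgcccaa
Hoxd1 (chr2:74762730-74762979, plus strand): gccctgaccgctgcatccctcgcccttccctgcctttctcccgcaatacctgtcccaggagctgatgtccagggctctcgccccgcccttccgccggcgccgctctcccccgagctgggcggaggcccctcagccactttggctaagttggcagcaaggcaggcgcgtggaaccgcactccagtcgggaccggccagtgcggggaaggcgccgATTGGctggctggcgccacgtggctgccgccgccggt

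The Hox regions held fewer FM-specific members than the genome. Of the 217, 53 were FM-specific (24.4%, 95% interval 18.9 to 30.7), against 43.6% of all regions, and 44 were KO-specific (20.3%, 15.1 to 26.3), against 16.0% of all regions. Both lists held 120 of them (55.3%, 48.4 to 62.0), against 40.5% of all regions. Of the 97 regions held by a single list, FM-specific ones made up 54.6% (44.2 to 64.8), against 73.2% over the genome and 72.2% over the 4 chromosomes that carry the clusters. The share held by both lists goes with strength: among regions with −log10 q of at least 10 in either list, 81 of 93 Hox regions were shared (87.1%), close to the 83.9% over the genome.

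The lists differ in length, so each was also reduced to its 50000 peaks of lowest p-value. Over the genome the specific regions then divided almost evenly, with 49.7% FM-specific. At the Hox genes 10 were FM-specific and 33 KO-specific, an FM share of 23.3% (11.8 to 38.6). Each of the 4 clusters lay below its own chromosome in that setting. Hoxa held 20.0% FM-specific regions against 54.8% on chromosome 6, Hoxb 33.3% against 56.0% on chromosome 11, Hoxc 9.09% against 28.8% on chromosome 15, and Hoxd 28.6% against 51.8% on chromosome 2. The cluster shares rest on 7 to 15 specific regions each. Their intervals were 2.52 to 55.6 (Hoxa), 11.8 to 61.6 (Hoxb), 0.230 to 41.3 (Hoxc) and 3.67 to 71.0 (Hoxd). Each contains its chromosome's value, so a departure was not detectable in any single cluster.

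**Figure D1:**
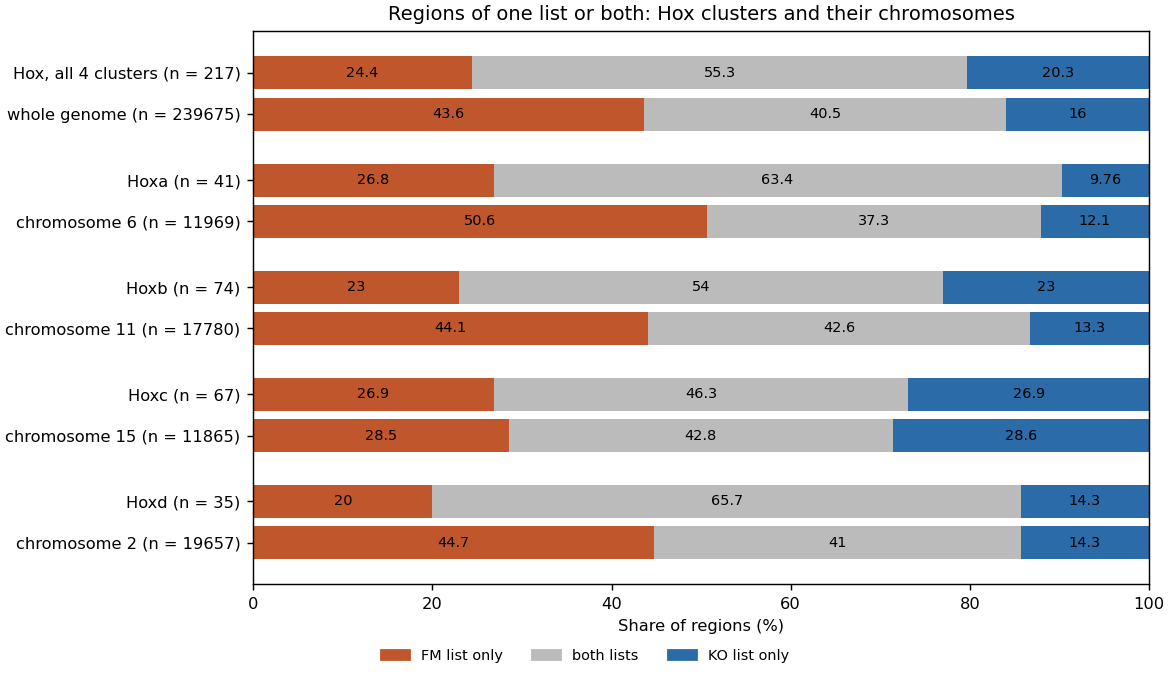
Share of regions held by the FM list only, by both lists and by the KO list only, in percent, for the Hox set and each cluster above the genome or chromosome it lies in, with the number of regions in brackets. FM-only regions made up 24.4% of the Hox set and 43.6% of the genome, and the Hoxc bars differ little from those of chromosome 15.

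Set beside their chromosomes, the clusters with the full lists were unlike one another. Hoxb held 40 shared, 17 FM-specific and 17 KO-specific regions, so 50% of its specific regions (32.4 to 67.6) were FM-specific, while chromosome 11 had 76.8%. Hoxc also stood at 50% (32.9 to 67.1), with 31 shared, 18 FM-specific and 18 KO-specific regions, but chromosome 15 as a whole stood at 49.9%. The Hoxc interval contains that value, so a departure of Hoxc from its chromosome was not detectable. The match itself depended on the setting. Hoxc stood at 9.09% against 28.8% on chromosome 15 with 50000 peaks, and at 35.3% against 52.0% without peaks under a −log10 q of 5. It lay above its chromosome, at 56.25% against 49.9%, when only regions within 10 kb of a gene were counted. Hoxa had 26 shared, 11 FM-specific and 4 KO-specific regions, a share of 73.3% (44.9 to 92.2) against 80.7% on chromosome 6, and Hoxd had 23, 7 and 5, a share of 58.3% (27.7 to 84.8) against 75.8% on chromosome 2. The intervals of Hoxa and Hoxd contain their chromosomes' values, so with so few regions a departure was not detectable there. Without Hoxc the FM share over the other clusters was 57.4% (44.1 to 70.0).

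By position along the clusters, with the regions of the 4 clusters pooled, the FM share of specific regions was lowest at the central genes. The anterior genes had 33 shared, 15 FM-specific and 13 KO-specific regions, the central genes 35, 8 and 14, and the posterior genes 52, 30 and 17. The intervals of the 3 FM shares, 53.6% (33.9 to 72.5), 36.4% (17.2 to 59.3) and 63.8% (48.5 to 77.3), overlap. The genome stood at 73.2%. Hoxc has no anterior gene, and it gave 6 of the 8 FM-specific and 9 of the 14 KO-specific central regions. The other central ones, 2 and 5, lay in Hoxb. Position is thus mixed with cluster and chromosome, and chromosome 15 as a whole stood at 49.9%. Within Hoxa, 3 FM-specific and 4 KO-specific regions lay at anterior genes, and 8 FM-specific and 0 KO-specific regions lay at posterior ones. The intervals of these FM shares, 9.90 to 81.6 and 63.1 to 100, overlap, and both contain the 80.7% of chromosome 6. The annotated extent of Hoxa3 runs over Hoxa4, Hoxa5 and Hoxa6, and those of Hoxb3 and Hoxd3 run over their paralog 4, so regions between central genes count as anterior where no shorter gene holds them. Placed by the central genes they lie at or beyond, 2 of the 4 KO-specific and 1 of the 3 FM-specific Hoxa regions are central. Over all clusters the FM share was then 54.2% at anterior and 38.5% at central genes, close to the pooled shares above.

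Regions inside the clusters and around them differed in how often both lists held them. Inside, from the first to the last reported gene, 97 of 157 regions were shared (61.8%), with 33 FM-specific and 27 KO-specific. Outside, 23 of 60 were shared (38.3%), with 20 FM-specific and 17 KO-specific. Over all regions of the genome 40.5% were shared. The regions inside were also stronger. Those with −log10 q of at least 10 in either list numbered 82 of 157 inside and 11 of 60 outside, and 87.8% and 81.8% of these were shared. The farthest members lay 89.9 kb (FM-specific, fold 2.233) and 95.8 kb (KO-specific, fold 1.977) from Hoxc13, and no region with a Hox gene as its nearest gene lay beyond 100 kb.

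Peaks covered a similar part of the clusters in both lists. Of the 485.0 kb that the clusters span, 16.8% lay under an FM peak and 15.6% under a KO peak. Over all protein-coding gene bodies 5.56% of bases lay under FM peaks and 3.88% under KO peaks. These measures are unlike, because the cluster spans include DNA between genes, and gene length was not matched. With 50000 peaks from each list the order in the clusters turned, at 11.1% (FM) and 12.4% (KO), while gene bodies had 2.44% and 2.20%. By cluster the covered share was 18.7% (FM) and 18.0% (KO) for Hoxa, 16.3% and 14.1% for Hoxb, 13.8% and 13.2% for Hoxc, and 19.3% and 18.7% for Hoxd. The FM list had 138 peaks in the clusters and the KO list 128, with mean widths of 579 to 680 bp (FM) and 519 to 718 bp (KO) among the clusters.

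**Figure D2:**
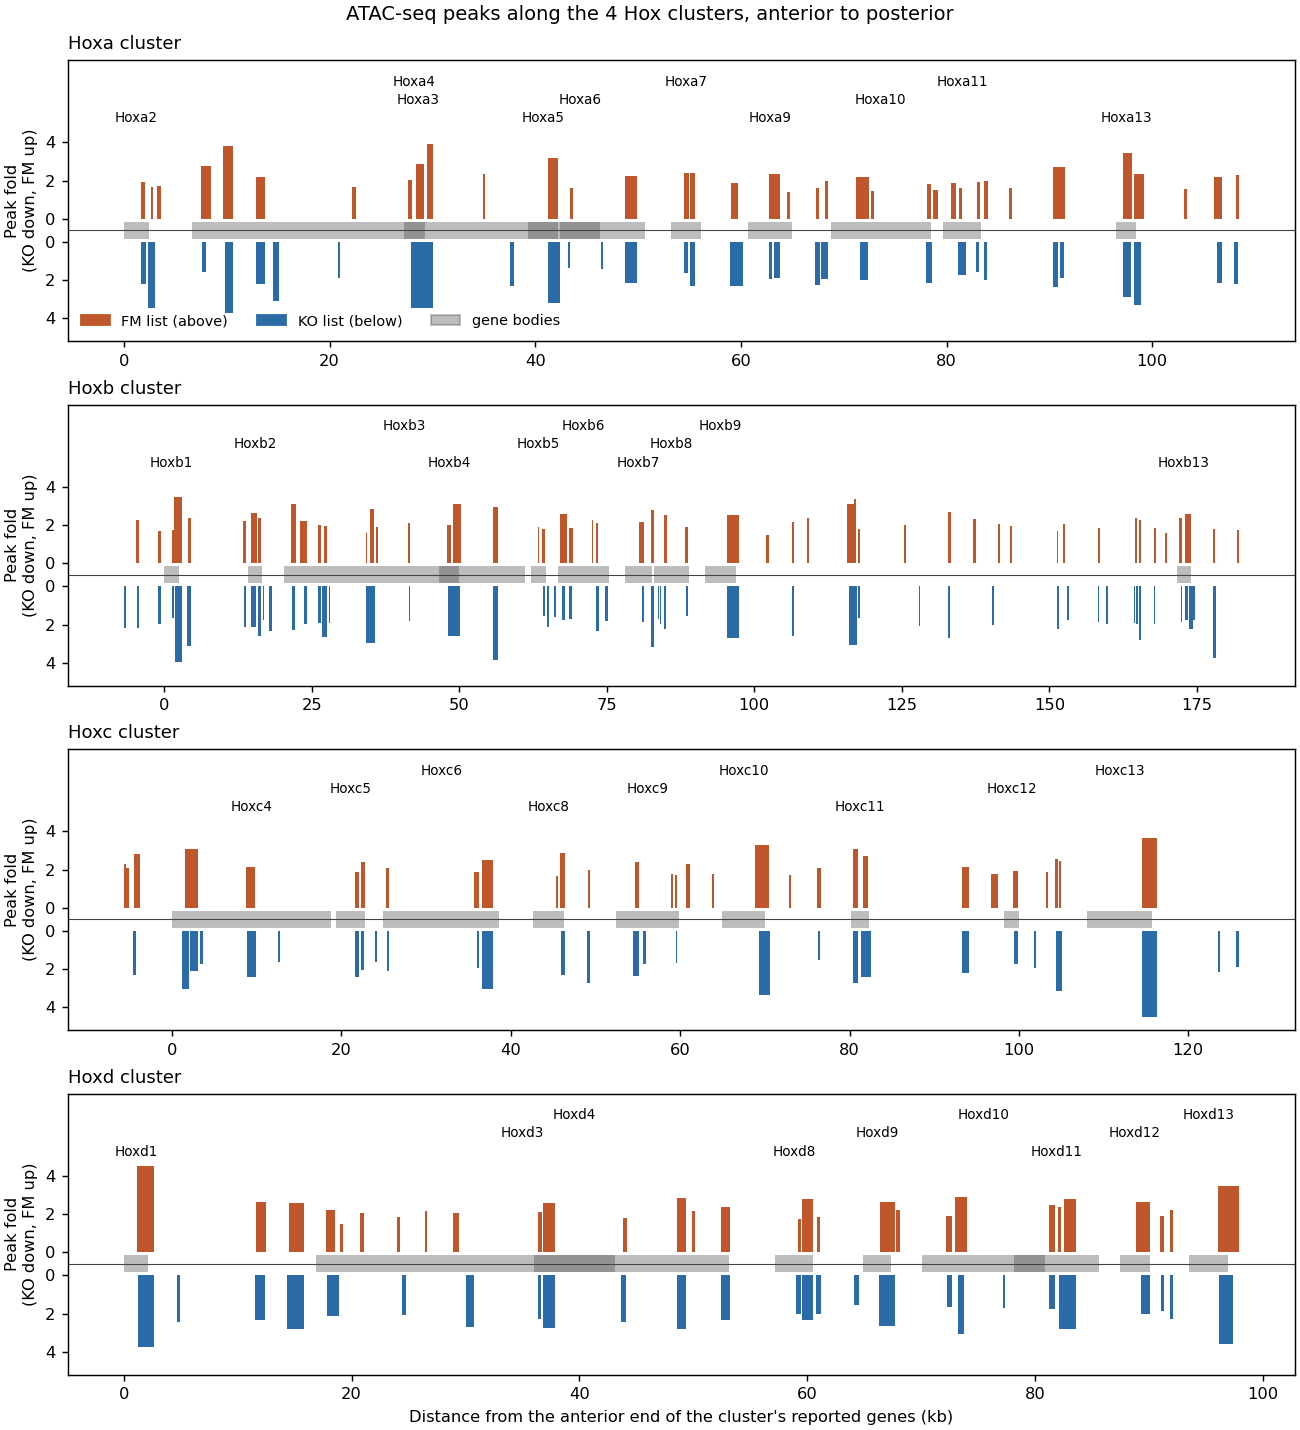
Peaks of the FM list (upward) and the KO list (downward) along each cluster, drawn from anterior (left) to posterior (right), with the distance in kb from the anterior end of the reported genes on the horizontal axis and the peak fold on the vertical axis. Grey bars are gene bodies, and a peak is drawn as wide as it is; most tall peaks have a partner in the other list, and the KO peak at Hoxa3 with a fold of 3.118 has none.

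Every member carried a peak in both lists. All 38 genes had at least 1 FM peak and at least 1 KO peak on the gene body, against 79.3% of protein-coding genes with an FM peak and 77.7% with a KO peak. The strongest peak on a Hox gene, taken as that of highest −log10 q, was modest: its fold, which is the pileup of reads at the summit over the local background, had a median of 2.77 for FM and 2.75 for KO, against 3.69 and 4.38 over all protein-coding genes. This peak was picked in each list separately, so the peaks compared at a gene can lie at different places. At Hoxa2, Hoxa10, Hoxa11, Hoxa13, Hoxb2, Hoxb3, Hoxb5, Hoxb6 and Hoxc5 they do not overlap. The strongest KO peak had the higher fold at 17 of the 38 genes, against 76.0% of the protein-coding genes with a peak in both lists. The comparison was not matched for strength, and the strongest peaks of Hox genes were weaker than those of genes in general. Over all shared regions the lean of folds to the KO list lay in the strong classes. There the median log2 fold ratio of FM over KO was −0.139 at a mean −log10 q of 20 to 50, and −0.285 at 50 or more. In the classes under 5, 5 to 10 and 10 to 20 it was 0.024, 0.07 and 0.025. Only 3 shared Hox regions were in the class of 50 or more.

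The anterior genes had 7 members, and their strongest peaks had folds of 1.94 to 4.52 in the FM list and 2.58 to 3.94 in the KO list. Hoxb1, which specifies a hindbrain segment, had 3.46 (FM) and 3.94 (KO), and Hoxa3, which acts in the thymus and parathyroid primordia, had 3.83 and 3.72. Both genes were thus among the strongest in either list. Hoxa2, which patterns the hindbrain and the second pharyngeal arch, had 1.94 (FM) and 3.44 (KO), the largest gap of all members. These values come from different regions of the gene. The region of the FM peak had a KO fold of 2.21, and that of the KO peak an FM fold of 1.69. Hoxd3 (2.84 and 2.82) hardly differed between the lists, and Hoxd1 (4.52 and 3.76) was higher in the FM list. Hoxb2 had 2.62 and 2.58, and Hoxb3 3.08 and 3.84, each from different regions. The region of the FM peak in Hoxb3 had 3.08 (FM) and 2.29 (KO), and that of the KO peak 2.97 (FM) and 3.84 (KO). In Hoxb2 the region of the FM peak had 2.62 (FM) and 2.15 (KO), and that of the KO peak 2.39 (FM) and 2.58 (KO).

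The 15 central genes ranged from 1.598 to 3.17 (FM) and from 1.37 to 3.45 (KO). Hoxa6 was the weakest member, with folds of 1.598 (FM) and 1.37 (KO), and Hoxb5 came next among the central genes with 1.92 and 1.57. Hoxa5, which acts in lung and axial development, was strong in both lists at 3.17 (FM) and 3.22 (KO), and so was Hoxc4 at 3.09 and 3.07. Hoxc6, Hoxb7 and Hoxb8 had the higher fold in the KO list, and Hoxb4, Hoxc8 and Hoxd8 in the FM list, each by less than 1.5 times. Hoxa4 had 2.88 (FM) and 3.45 (KO) by this measure, but its KO peak is 2132 bp wide and runs past the gene, where the FM list has a separate peak with a fold of 3.89 that does not touch the gene. Hoxb7 and Hoxb8 share 1 peak where their gene bodies meet. Hoxa7, Hoxb6, Hoxc5 and Hoxd4 stood between 2.32 and 2.75 in both lists.

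The 16 posterior genes ranged from 1.94 to 3.65 (FM) and from 1.72 to 4.48 (KO). The last gene of a cluster was strong in 3 of the 4: Hoxa13 had 3.43 (FM) and 3.32 (KO), Hoxd13, which with Hoxa13 patterns digits and genitalia, had 3.48 and 3.58, and Hoxc13, known for its role in hair and nails, had 3.65 and 4.48. Hoxb13, which acts in the tail and prostate, had 2.57 and 2.21. Hoxa11 (1.94 and 1.72) and Hoxc12 (1.95 and 1.75) were the weakest posterior genes in both lists. Hoxc10 stood at 3.30 (FM) and 3.35 (KO), and Hoxa9, Hoxa10, Hoxb9, Hoxc9, Hoxc11, Hoxd9, Hoxd10, Hoxd11 and Hoxd12 lay between 1.96 and 3.08. For anterior, central and posterior genes the median folds were 3.08, 2.77 and 2.63 in the FM list, against 3.72, 2.58 and 2.69 in the KO list, so the anterior genes had the highest median in both.

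**Figure D3:**
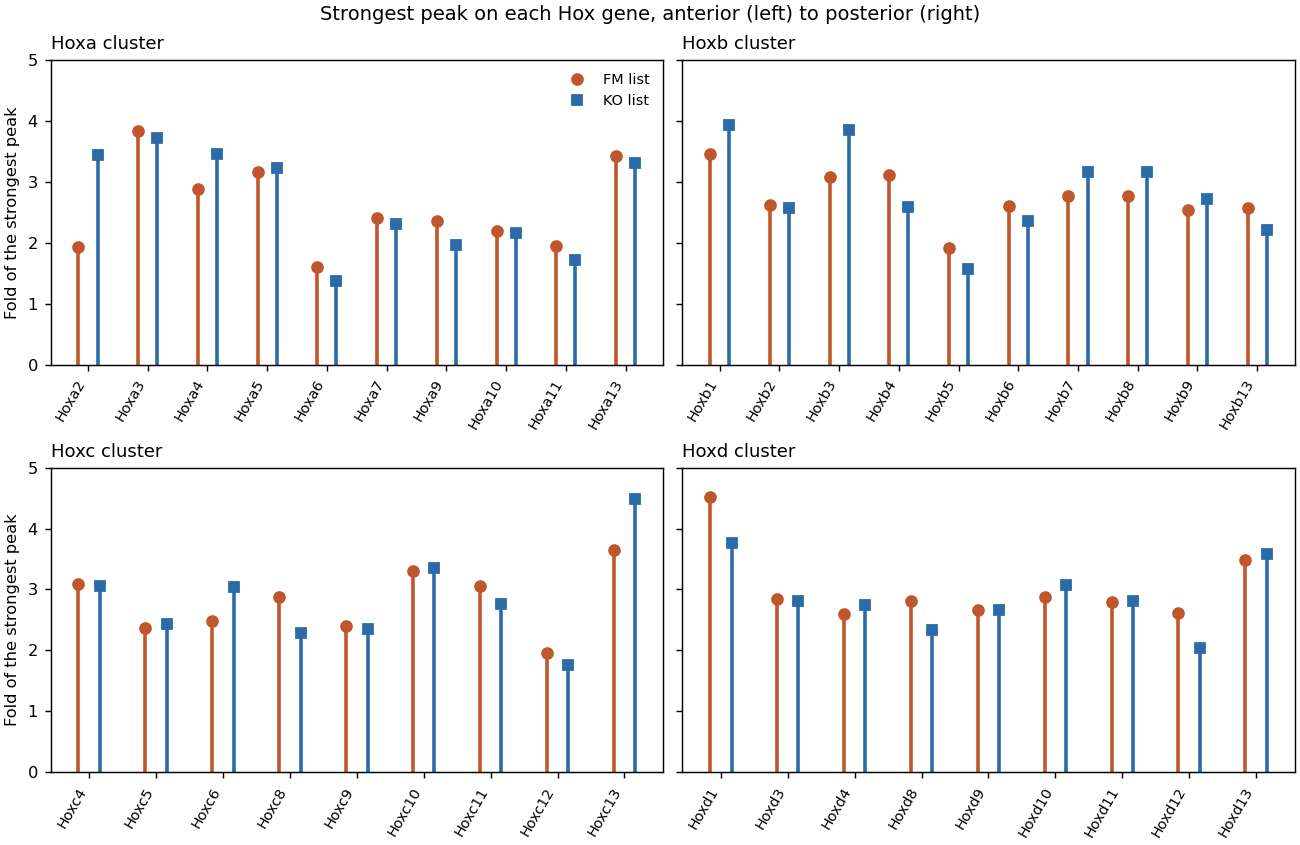
Fold of the strongest peak on each of the 38 genes in the FM list (circles) and the KO list (squares), ordered by paralog number within each cluster. The 2 values lie close together at most genes, but the peaks behind them can lie at different places in a gene. Hoxa2 is the widest gap, at 1.94 (FM) and 3.44 (KO), from peaks in different regions.

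Single regions of Hoxa differed between the lists at Hoxa2 and within the extent of Hoxa3. The region over the start of Hoxa2 (chr6:52164784-52165424), which includes the whole sequence printed above, had a fold of 1.69 with −log10 q of 3.50 in the FM list and 3.44 with −log10 q of 51.8 in the KO list, a KO-over-FM ratio of 2.04. The FM peak is 200 bp wide and begins just beyond the upstream sequence, and the KO peak is 641 bp wide and covers all 250 bases of it. The summits of the peaks lie 16 bp apart, both outside the printed sequence. Within the extent of Hoxa3, a region of 618 bp (chr6:52176935-52177552) was KO-specific with a fold of 3.12 and −log10 q of 47.9, and ranked 50 by q among the 38241 KO-specific regions of the genome. It overlaps the long non-coding gene 5730596B20Rik. A second KO-specific region in the extent of Hoxa3, between Hoxa4 and Hoxa5 (chr6:52199977-52200342), had a fold of 2.30 and −log10 q of 14.3.

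Hoxa3 also held the Hox region that leaned most to the FM list. That region (chr6:52169938-52170896) had folds of 2.75 (FM, −log10 q 22.5) and 1.59 (KO, −log10 q 3.96), a ratio of 1.73 toward FM. The anterior end of Hoxa thus held differences in both directions, a few kb apart. At the other end of the cluster, the region within Hoxa13 (chr6:52259550-52260425) had folds of 3.43 (FM) and 2.87 (KO), and the next region, over its start (chr6:52260612-52261593), had 2.36 (FM) and 3.32 (KO). The widest region of the cluster, 2422 bp over Hoxa4, had folds of 3.89 (FM) and 3.45 (KO), and the highest KO fold, 3.72, stood beside an FM fold of 3.83 in Hoxa3 (chr6:52172107-52173055). No FM-specific region of Hoxa reached −log10 q of 10; the strongest, in Hoxa3, had a fold of 2.37 and −log10 q of 8.27.

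In Hoxb the region of highest fold in both lists lay outside the genes. It was 28.6 kb from Hoxb1 (chr11:96396873-96397703) and had folds of 4.05 (FM) and 4.35 (KO). The largest difference lay 3.74 kb beyond Hoxb13 (chr11:96190017-96190580), with a fold of 1.82 and −log10 q of 3.86 in the FM list, against 3.73 and 38.3 in the KO list, a KO-over-FM ratio of 2.05. Among regions strong in both lists, 1 in Hoxb3 (chr11:96345838-96346744) leaned to FM with folds of 3.08 and 2.29, and 1 that lay 1.45 kb from Hoxb1 (chr11:96363685-96364298) leaned to KO with folds of 2.35 (FM) and 3.14 (KO). The widest region, 2401 bp over Hoxb4, had folds of 3.11 (FM) and 2.58 (KO).

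List-specific regions of −log10 q of at least 10 had folds of 2.20 to 2.35 in the FM list and of 2.11 to 3.12 in the KO list. Hoxb had 2 of the FM list, 12.0 kb from Hoxb9 (fold 2.35, −log10 q 15.8) and within Hoxb6 (2.24 and 11.1). It had 2 of the KO list, 0.110 kb from Hoxb5 (2.11 and 10.9) and 1.23 kb from Hoxb2 (2.35 and 17.2). Hoxc had 1 FM-specific region 0.877 kb from Hoxc9 (2.28 and 10.4), and 2 KO-specific regions 39.0 kb and 40.9 kb from Hoxc4 (2.26 and 10.4, 2.27 and 10.7). Hoxd had 1 FM-specific region 0.409 kb from Hoxd9 (2.20 and 10.4), and 2 KO-specific regions, in Hoxd3 (2.72 and 17.4) and 2.54 kb from Hoxd1 (2.47 and 12.7). Over the 4 clusters, with those of Hoxa, this came to 4 FM-specific regions of 217 (1.84%, 0.505 to 4.65), against 2.57% of all regions, and to 8 KO-specific regions (3.69%, 1.61 to 7.14), against 1.51% of all regions. The KO share was above that of the genome, and the FM interval contains the genome's value. The Hox set also held more regions of this strength in either list, 93 of 217 against 60700 of 239675. Of these, 8 of 93 were KO-specific at Hox genes and 3611 of 60700 over the genome. Among specific regions of this strength the FM share was 33.3% (9.93 to 65.1), an interval that contains the genome's 63.1%.

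The Hoxc region of highest fold in both lists covered the start of Hoxc13 (chr15:102920566-102922310), with folds of 3.65 (FM) and 4.48 (KO). A region 3.01 kb beyond the other end of Hoxc13 (chr15:102931823-102932587) leaned to the KO list with 2.55 (FM) and 3.14 (KO). In the other direction, the region over the start of Hoxc8 (chr15:102990458-102991052) had 2.88 (FM) and 2.29 (KO). The widest region, 1960 bp over Hoxc4, had almost equal folds of 3.09 (FM) and 3.07 (KO).

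The folds of the 23 shared Hoxd regions differed by at most 1.38 times between the lists, at a region in Hoxd11 with 2.46 (FM) and 1.79 (KO). The region over the start of Hoxd1 (chr2:74762484-74764022), in which the printed Hoxd1 sequence lies entirely, had the highest FM fold of the Hox set, 4.52, against 3.76 in the KO list. The region over Hoxd8 (chr2:74704597-74705567) leaned to FM with 2.80 and 2.33. The largest lean to KO among strong regions was small, 2.595 (FM) and 2.813 (KO) at 1.04 kb from Hoxd3. The widest region, 1829 bp over Hoxd13, had folds of 3.48 (FM) and 3.58 (KO).

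Fold ratios of the 120 shared regions centred on no difference. The median log2 ratio of FM over KO fold was 0.01 (95% interval of the median −0.03 to 0.04), against 0.00 over all shared regions. The FM fold was the higher one in 63 of the 120 and the KO fold in 57, against 49.4% and 50.5% of all shared regions. A KO fold at least 1.5 times the FM fold occurred in 2 regions, those at Hoxa2 and Hoxb13, against 3.51% of all shared regions, and the opposite in 1 region, that of Hoxa3, against 1.77%.

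Pileups gave a different picture from folds. The fold and p-value of a peak together give the pileup of reads at its summit and the local background it was set against. Pileups compare the lists only if reads were extended alike in both; the lowest background was 28.55 reads (FM) and 28.85 reads (KO). The median log2 ratio of FM over KO pileup was −0.17 (−0.23 to −0.11) over the shared Hox regions and 0.08 over all shared regions. The FM pileup was the lower one in 81 of the 120 Hox regions, against 42.2% of all shared regions with recovered pileups.

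Local backgrounds moved with the pileups. The median local background under a Hox peak was 40.4 reads (FM) and 47.8 reads (KO), while over all peaks it was 35.9 and 35.0. The median log2 ratio of FM over KO background in the shared Hox regions was −0.18, and the fold is the pileup over this background. The background under Hoxa peaks was the highest of the clusters in both lists, 50.2 in FM and 63.3 in KO. The cause of the lower FM pileups and backgrounds was not tested.

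**Figure D4:**
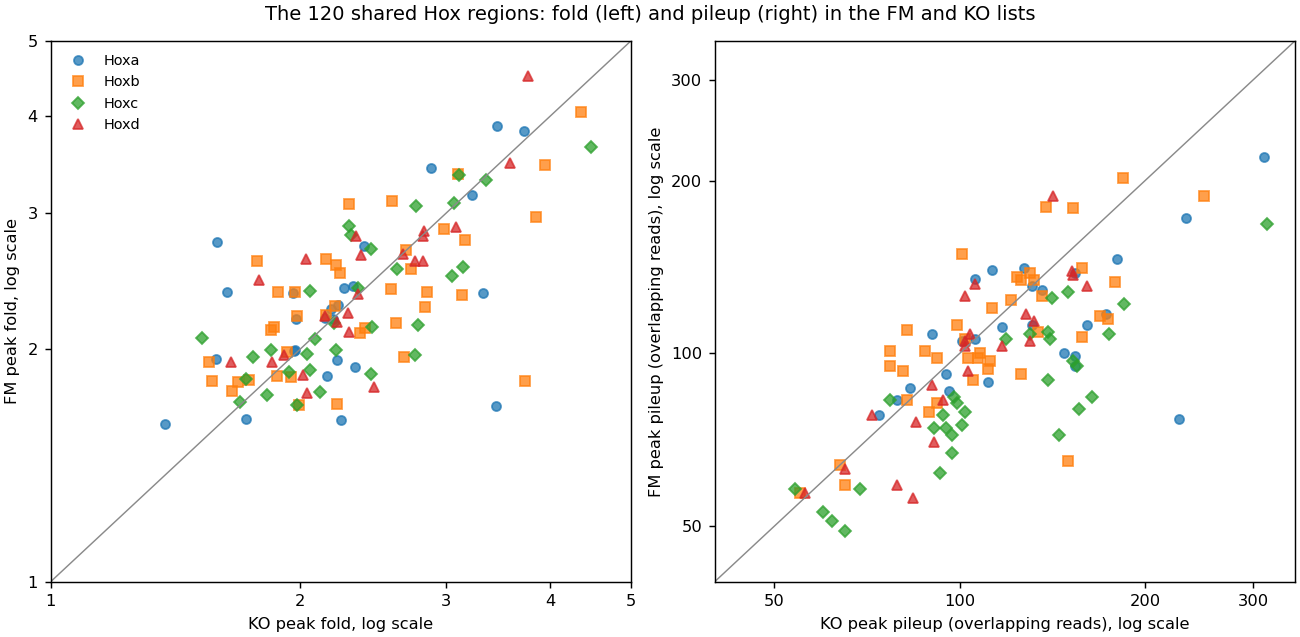
Each point is 1 of the 120 shared Hox regions, with the KO value on the horizontal and the FM value on the vertical axis (both log scales), for the peak fold (left) and the summit pileup in overlapping reads (right); the line marks equal values. Folds lie on both sides of the line, and 81 of the 120 pileups lie below it.

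By cluster, each pileup ratio lay below that of its chromosome. The median log2 ratio of FM over KO was −0.12 in Hoxa against 0.13 on chromosome 6, and 0.01 in Hoxb against 0.16 on chromosome 11. It was −0.37 in Hoxc against −0.14 on chromosome 15, and −0.13 in Hoxd against 0.09 on chromosome 2. Chromosome 15 was the 1 of the 4 chromosomes with a negative median, and Hoxc lay 0.23 below it, a distance like the 0.25 of Hoxa and the 0.22 of Hoxd. The distance was smallest, 0.15, for Hoxb. In Hoxc the FM pileup was the lower one in 29 of 31 shared regions, in Hoxa in 17 of 26, in Hoxd in 15 of 23 and in Hoxb in 20 of 40. Without Hoxc the Hox median was −0.08, with an interval of −0.16 to 0.02 that includes 0 and does not include the 0.08 of the genome.

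The pileup ratio depends on peak strength over the whole genome, so it was also taken within classes of mean −log10 q. Over all shared regions it was 0.13, 0.17 and 0.11 in the classes under 5, 5 to 10 and 10 to 20, and turned negative above, at −0.10 for 20 to 50 and −0.38 for 50 or more. The Hox regions lay below these values in every class, at −0.05 (19 regions), −0.16 (28), −0.16 (44), −0.30 (26) and −0.50 (3 regions). The first and last classes hold fewer than 20 Hox regions. The fold ratios of the Hox regions lay on both sides of those of the genome, above them in 4 classes and below in the class 5 to 10.

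**Figure D5:**
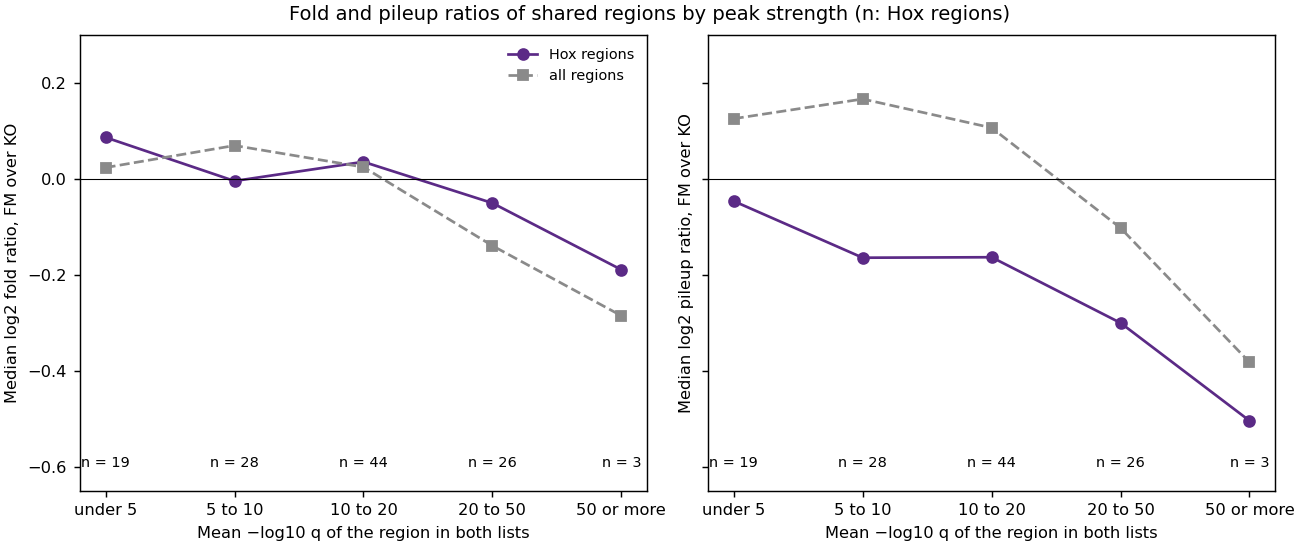
Median log2 ratio of FM over KO for the fold (left) and the pileup (right) of shared regions, in 5 classes of mean −log10 q, for the Hox regions (circles, with their number) and all regions (squares). In the right panel the Hox medians run from −0.05 to −0.50 and lie under those of all regions in each class.

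The Hox clusters also contain microRNA genes, which repress target transcripts through the seed at bases 2 to 8. Mature forms from RefSeq are shown for the loci of the miR-10, miR-196 and miR-615 families with the seed in capitals, because these hairpins lie within or beside the regions described here.
mmu-miR-615-3p: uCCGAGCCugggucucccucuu
mmu-miR-196b-5p: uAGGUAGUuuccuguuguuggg
mmu-miR-196a-5p: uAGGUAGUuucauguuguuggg
mmu-miR-10a-5p: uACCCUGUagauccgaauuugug
mmu-miR-10b-5p: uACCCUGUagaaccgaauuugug
The miR-196 forms share the seed AGGUAGU and the miR-10 forms share ACCCUGU. The hairpin of Mir615, within the extent of Hoxc5 (chr15:103014910-103015001, plus strand), lay wholly within a shared region with folds of 1.86 (FM, −log10 q 5.36) and 2.44 (KO, −log10 q 21.0). That of Mir196b (chr6:52230081-52230165, minus strand) lay with 43 bases in a shared region with folds of 1.62 (FM, −log10 q 3.69) and 2.24 (KO, −log10 q 16.4). Both regions had the higher fold in the KO list. Mir10a, Mir10b, Mir196a-1 and Mir196a-2 lay under no peak of either list, 0.706 kb, 1.15 kb, 0.533 kb and 0.307 kb from the nearest region; for both Mir196a genes that region was FM-specific.

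Upstream sequences were given for 22 of the 38 members, in 24 windows. Most of these belong to Hoxa and Hoxd genes, and the rest to Hoxb1, Hoxb4, Hoxb8 and Hoxc4. An FM peak touched 16 of the 24 and a KO peak also 16 (66.7% each), against 66.7% and 64.3% of the 21263 windows of all protein-coding genes. The Hox shares were thus near those of starts in general. Their median GC content was 58.6%, against 55.6% for all genes, and their median ratio of observed to expected CpG 0.721, against 0.53.

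Motif matches in these windows are descriptions of sequence and not of binding. The letters were searched on both strands, and CCAAT can overlap the other motifs. CCAAT occurred in 14 of 24 Hox windows (58.3%), against 35.4% of all windows, and TGATNNAT in 4 (16.7%), against 6.68%. The windows with TGATNNAT belong to Hoxa2, Hoxb1, Hoxb8 and Hoxd11, and the matches of Hoxa2 and Hoxb1 are those in capitals in the printed sequences. TAATTA, a homeodomain core, occurred in 2 windows (8.33%), against 4.31%, and both windows belong to Hoxd11. The paired homeodomain site of the Mixl1 type, TAAT and ATTA with 3 bases between them, occurred in 0 of 24, against 0.357%. TTTATNG, a site of posterior HOX and CDX proteins, occurred in 2 (8.33%), against 8.79%, TATAAA in 4 (16.7%), against 11.6%, and GGGCGG in 10 (41.7%), against 42.6%.

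Other families of developmental transcription factor genes did not show the Hox proportions. At the 6 Irx genes 97 of 110 specific regions were FM-specific (88.2%, 80.6 to 93.6), and at the 9 Pax genes 147 of 186 were (79.0%, 72.5 to 84.6). Both intervals lie above the Hox interval of 44.2 to 64.8. The median log2 pileup ratio was 0.08 at the Irx genes and 0.22 at the Pax genes. With 50000 peaks from each list the Irx share was 41.2% and the Pax share 47.2%, both above the 23.3% of the Hox set, but their intervals, 18.4 to 67.1 for Irx and 33.3 to 61.4 for Pax, overlap the Hox interval of 11.8 to 38.6.

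Genes that act with or upstream of Hox genes were closer to the genome than to the clusters. At 27 such genes, which include Cdx and retinoic acid genes, the PBX and MEIS partners of HOX proteins, and Polycomb and Trithorax members, 265 of 350 specific regions were FM-specific (75.7%, 70.9 to 80.1). FM-specific regions outnumbered KO-specific ones at 24 of the genes. Many of these regions lay at Pbx3 (52 FM-specific and 9 KO-specific) and Pknox2 (41 and 9), both cofactors of HOX proteins, and at Jarid2 (16 and 11), a Polycomb subunit. Cdx2, an activator of central Hox genes, was the 1 gene with more KO-specific regions, with 0 FM-specific and 1 KO-specific, and its strongest peak had folds of 2.54 (FM) and 3.53 (KO).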

How the data were processed

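Accessible chromatin was measured by ATAC-seq in 3 libraries of induced and 3 of Mixl1 KO cells. The submitters' processing notes name MACS2, Bowtie2, SAMtools and bcl2fastq, without versions, and the genome build mm10. Library pooling, Tn5 shifts and read filters were not given in the sources used here. For each group 1 narrowPeak list was deposited by the authors. The deposited values per peak are the fold of the summit over the local background (a ratio), −log10 of the p-value and q-value, and a display score that was not used. The lowest deposited −log10 q was 1.30.

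Rows of 1 peak were collapsed to that of lowest p-value, and the main chromosomes were kept. Both lists were merged into regions, which were shared with an overlap of at least 1 bp. Each was assigned to the nearest of 21887 protein-coding genes (RefSeq, GRCm38.p6, the assembly that mm10 names), ties to each gene, and 7 regions were tied. A region tied between genes was placed at the shortest one. Strand and exons were not used here. In a region with several peaks of a list, the highest fold, pileup and −log10 q were taken, and the background of the peak of highest −log10 q. Summit pileups and backgrounds were solved from fold and p-value, for 205661 FM and 138462 KO peaks, and more than 99.99% of them were whole within 0.02. The depth in reads is unknown. No test between groups was possible. Intervals are Clopper-Pearson, and for medians binomial intervals of order statistics. Scripts (Python 3.11.15, SciPy 1.17.1, pandas 2.3.3) were tested on simulated data.

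The members, gene lists and strength classes were chosen with earlier results of these data known. Genes and regions were named by rule: all 38 members with the strongest peak in each list, and per cluster the regions of highest fold, the widest, the list-specific ones of −log10 q of at least 10 (or the strongest), the largest fold ratios in each direction among regions of at least 10 in both lists, and regions at microRNA genes. Genes of the regulator list were named by their number of specific regions, and 1 of them is not reported here. The 3 regions past a ratio of 1.5 times were added after their values were seen. Alternatives were the 50000 peaks of lowest p-value, −log10 q of at least 5, an overlap of 50%, genes within 10 kb, regions inside the clusters, pileups in place of folds, leaving out Hoxc, and placing regions under long anterior genes by the central gene beside them; the last, and gene-body coverage with 50000 peaks, were added after the data were seen.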

Additional observations from a re-analysis of the deposited data

How the results depend on the processing

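With 50000 peaks from each list the FM share of specific regions moved to 23.3% over the Hox genes, 20.0% in Hoxa, 9.09% in Hoxc, 50% at the regulators, 41.2% at Irx and 47.2% at Pax, against 49.7% over the genome; 1 choice thus changes the Hox share from near an even split to mostly KO-specific. With −log10 q of at least 5 the Irx share was 79.4%. Within 10 kb of a gene, 62.8% of Hox regions were shared. Using pileups in place of folds turned the median log2 ratio negative, to −0.17 over the Hox regions and −0.16 at anterior genes, while without Hoxc the Hox pileup ratio was −0.076. Cluster coverage under −log10 q of at least 5 was 14.9% (FM) and 13.9% (KO), and with 50000 peaks it was 11.1% (FM) and 12.4% (KO), the reverse order of the full lists. The other 45 comparisons of a result with an alternative stayed within their intervals. The cause of these changes was not tested, beyond the smaller number of peaks that 2 of the settings leave.

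No paired analysis was possible because each group was deposited as 1 list, and for the same reason leaving out a replicate was not run. Without a depth or replicate lists, absence from a list does not show that a region was closed.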

Other observations

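The posterior ends of the Hoxa and Hoxd clusters border on Evx genes, relatives of the Drosophila gene even-skipped. Evx1, beside Hoxa13, had 7 shared, 9 FM-specific and 5 KO-specific regions, and Evx2, beside Hoxd13, had 5, 2 and 2. Over the genome 40.5% of regions were shared, and 73.2% of specific regions were FM-specific. The Evx counts are small and are given as description only. The region on Evx2 (chr2:74654954-74656557) had folds of 3.57 (FM) and 3.05 (KO). The 5 shared Evx2 regions had the higher fold in the FM list in 4 cases, against 49.4% of all shared regions. The exception was chr2:74658618-74659371 with 1.45 (FM) and 1.91 (KO). Of the Evx1 regions on the gene, the strongest (chr6:52313539-52315152) had folds of 2.11 (FM) and 2.18 (KO). The KO-specific region of highest −log10 q at Evx1 lay 1.77 kb away (chr6:52311321-52311729), with a fold of 2.14 and −log10 q of 13.0.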
